A study of Mus musculus with 4 samples.

Results

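The genes described here are the 6 anterior members of the HoxA and HoxD clusters named *Hoxa2*, *Hoxa3*, *Hoxd1*, *Hoxd3*, *Hoxd4* and *Hoxd8*, taken by name from the 39 *Hox* genes among the 28692 genes listed in the files. They were measured by droplet single-cell RNA sequencing in mesenchymal stromal cells of mouse embryos at E12.5, with 2 libraries from the small intestine (SI) and 2 from the large intestine with the cecum (LI). All animals were untreated embryos of the EYFP strain on a C57BL/6 background, which express a yellow fluorescent protein in every cell, and the labels give 2 independent experiments with pooled embryos, without saying which library came from which. Cells had been sorted as live, EYFP-positive and Itgb1-positive and as negative for CD45, Ter119, CD31 and EpCAM. The sample titles and protocol give the embryonic stage, whereas 2 other label fields name adult stroma and lamina propria, and the titles were followed.

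*Hox* genes encode homeodomain transcription factors that give cells their position along the body axis. Within a cluster the genes lie in the order in which they are used: those at the 3′ end act early and in anterior parts of the embryo, those at the 5′ end late and in posterior parts. Genes with the same number in different clusters are paralogues, which arose by duplication of an ancestral cluster. In the gut, 5′ *Hoxa* and *Hoxd* genes are known for their role in the hindgut and the cecum. The question asked was whether the 3′ *Hoxd* genes were distributed like the posterior genes of their own cluster or like their *Hoxa* paralogues.

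On build mm10, *Hoxa2* (chr6:52162417-52164831) and *Hoxa3* (chr6:52169062-52213336) are transcribed from the minus strand, and *Hoxd8* (chr2:74704615-74707933), *Hoxd4* (chr2:74711929-74729160), *Hoxd3* (chr2:74711927-74748442) and *Hoxd1* (chr2:74762980-74765142) from the plus strand. The exons of *Hoxd3* and *Hoxd4* share 388 bases on the same strand, and the read-through gene *Gm28230* covers 2225 of 4191 exon bases of *Hoxd3* and 1154 of 2948 of *Hoxd4*. Reads in shared stretches cannot be given to either gene, so the levels of *Hoxd3* and *Hoxd4* are uncertain to that extent. *Gm28230* itself had 22 unique molecular identifiers (UMIs, each counting a captured transcript) in the LI and 1 in the SI sums of the fibroblast class defined below. *Gm28308*, which shares 267 exon bases with *Hoxa2* and 482 with *Hoxa3*, had none there.

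The promoters that held a match to 1 of 4 searched motifs, those of *Hoxd3*, *Hoxd4*, *Hoxd8* and *Hoxa2*, are shown so that they can be read beside the values. Each is the 300 bases from 250 before to 50 after a transcription start in RefSeq (build GRCm38.p6), at chr2:74704365-74704664 (+) for *Hoxd8*, chr2:74721728-74722027 (+) for *Hoxd4*, chr2:74711743-74712042 (+) for *Hoxd3* and chr6:52164782-52165081 (-) for *Hoxa2*. Capitals mark matches, on either strand, to the letters AGGTCA (a core recognised by retinoic acid receptors), TATAAA (the TATA box), TTTATG (bound by Cdx factors) or TGATNNAT (a joint Pbx and Hox motif).
Hoxd8: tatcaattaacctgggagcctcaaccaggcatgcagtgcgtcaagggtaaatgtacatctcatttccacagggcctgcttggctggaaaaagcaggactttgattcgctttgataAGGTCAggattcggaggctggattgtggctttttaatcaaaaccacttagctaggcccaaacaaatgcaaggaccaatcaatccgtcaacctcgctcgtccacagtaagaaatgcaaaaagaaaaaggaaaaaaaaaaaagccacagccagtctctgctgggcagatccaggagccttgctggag
Hoxd4: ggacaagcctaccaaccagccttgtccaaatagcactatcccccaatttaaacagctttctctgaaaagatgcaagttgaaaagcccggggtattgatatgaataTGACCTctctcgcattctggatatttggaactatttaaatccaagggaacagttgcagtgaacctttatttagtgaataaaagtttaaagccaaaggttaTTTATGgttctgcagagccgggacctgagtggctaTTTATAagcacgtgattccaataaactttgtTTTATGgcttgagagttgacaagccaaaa
Hoxd3: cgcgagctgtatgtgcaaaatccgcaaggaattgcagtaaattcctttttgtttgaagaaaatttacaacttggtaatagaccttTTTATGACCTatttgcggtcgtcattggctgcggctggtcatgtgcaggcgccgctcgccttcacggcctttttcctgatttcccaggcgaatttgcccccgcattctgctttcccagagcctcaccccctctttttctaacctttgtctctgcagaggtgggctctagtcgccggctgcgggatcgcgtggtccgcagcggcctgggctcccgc
Hoxa2: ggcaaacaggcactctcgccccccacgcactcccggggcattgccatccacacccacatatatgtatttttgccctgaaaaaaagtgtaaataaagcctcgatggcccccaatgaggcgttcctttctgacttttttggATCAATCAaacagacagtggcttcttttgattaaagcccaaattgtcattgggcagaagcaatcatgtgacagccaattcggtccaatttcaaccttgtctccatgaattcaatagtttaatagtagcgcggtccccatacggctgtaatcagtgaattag
AGGTCA or its reverse complement was present in *Hoxd3*, *Hoxd4* and *Hoxd8* and in 16.3% of all 32851 promoters of this length. TTTATG was present in *Hoxd3*, where it overlaps the AGGTCA match, and at 2 places in *Hoxd4* (11.9% of all), TATAAA in *Hoxd4* (13.6%) and TGATNNAT in *Hoxa2* (8.85%). The windows of *Hoxa3* and *Hoxd1* held none of these letters. They held 20 and 29 CpG pairs, beside 4 in *Hoxd4*, 6 in *Hoxd8*, 9 in *Hoxa2*, 20 in *Hoxd3* and a median of 7 over all promoters. A match describes the letters only. The RefSeq start used for *Hoxd4* lies within its gene as annotated above, whose first base is close to the start used for *Hoxd3*.

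After filtering, 22094 cells were kept, 4603 to 6247 per library, with a median of 4220.5 UMIs per cell in LI replicate 1 and 8382 to 8829 in the other 3 libraries. Pairs of libraries shared 8 to 15 cell barcodes. Cells fell into 11 clusters in a space from which all *Hox* genes had been removed, and 4 classes were named from markers. These were fibroblast-like cells (FB-like, 9063 cells), smooth muscle-like cells (SMC-like, 4638), mesothelial-like cells (1310) and neural-like cells (1246). FB-like cells were clusters 0 (6289 cells) and 2 (2774, led by histone genes). No marker of any class was among the leading genes of either, and the name rests on at least 3 fibroblast markers being detected in 10% or more of their cells. They showed 9 of 10 fibroblast markers in every library, and all 10 SMC markers were detected in them too, at a summed level of 836 to 2348 CPM (UMIs of a gene per 1000000 UMIs of the class) beside 1026 to 1666 CPM for the fibroblast list. In SMC-like cells the fibroblast list summed to 1068 to 1827 CPM and the SMC list to 1922 to 11037 CPM, and in mesothelial-like cells the fibroblast list summed to 1399 to 3619 CPM. In every library the fibroblast list was thus lower in FB-like cells than in both other classes, so these markers did not set FB-like cells apart. Markers of immune, endothelial, epithelial and erythroid cells each summed to at most 16.1 CPM in FB-like cells, splenopancreatic markers to 201 to 354 CPM and markers of interstitial cells of Cajal to 107 to 195 CPM. Several lists differed between regions without overlap in FB-like cells. Mesothelial markers summed to 138 and 61.4 CPM in LI and 46.3 and 25.1 CPM in SI. SMC markers summed to 836 and 1311 CPM in LI and 1351 and 2348 CPM in SI. The pericyte and immune lists were also higher in SI, and the epithelial and splenopancreatic lists in LI. The part of these differences in the results was not tested. Neural-like cells showed all 11 neural markers, at 3025 to 4473 CPM, and 60.8 to 84.8 CPM of fibroblast markers. Each comparison below is of UMI sums per library and class, and with 2 pooled libraries per region its p-values measure only the spread between these libraries.

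In FB-like cells all 4 *Hoxd* members were higher in LI, *Hoxa2* was higher in SI and *Hoxa3* did not pass the test. *Hoxd4*, which patterns the cervical vertebrae and the hindbrain, was at 59.2 and 55.1 CPM in the LI libraries and at 2.75 and 2.998 CPM in the SI libraries. Counted over the regions, 1874 UMIs in LI stood against 100 in SI, a ratio of 19.8 (95% counting interval 16.2 to 24.4), and the log2 fold change (SI relative to LI throughout) was -4.15 (SE 0.22, adjusted p = 2.39e-05). *Hoxd3*, which acts with *Hoxa3* in forming the first vertebrae, was at 9.30 and 10.3 CPM in LI and at 0.220 and 0.240 CPM in SI, where 8 UMIs remained. Its ratio was 43.1 (21.6 to 101) and its log2 fold change -5.21 (SE 0.36, adjusted p = 6.80e-05). The groups did not overlap for either gene, and both LI libraries lay close to each other.

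*Hoxd8*, from the middle of the cluster, had a smaller log2 fold change. It was at 54.8 and 46.3 CPM in LI and at 8.92 and 8.21 CPM in SI, a ratio of 5.79 (5.11 to 6.57) and a log2 fold change of -2.40 (SE 0.21, adjusted p = 0.000275). *Hoxd1*, a group 1 gene known from the hindbrain and from pain-sensing neurons, was at 2.44 and 3.31 CPM in LI, where 98 UMIs were counted. It had no UMI in SI FB-like cells, so with a floor of 3 UMIs over the region it was at least 34.5-fold higher in LI (adjusted p = 0.00122). Leaving out 1 library at a time kept this bound between 16.5-fold and 38.5-fold.

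The *Hoxa* members did not share this pattern. *Hoxa2*, which patterns the second branchial arch and the hindbrain, was at 3.51 and 2.86 CPM in LI and at 13.8 and 7.07 CPM in SI, with a log2 fold change of 1.89 (SE 0.35, adjusted p = 0.0155). The SI libraries differed from each other by more than the LI libraries did, and both lay above LI. *Hoxa3*, needed for the thymus and parathyroid, was at 14.2 and 20.9 CPM in LI and at 18.1 and 15.5 CPM in SI, and the regions overlapped (log2 fold change 0.10, SE 0.23, adjusted p = 0.866). Of the 6 members, 1 had a call toward SI and 4 toward LI, beside 1.51% and 3.48% of the 13318 genes tested. The median log2 fold change of the members was -3.28, beside 0.00 over all genes.

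**Figure D1:**
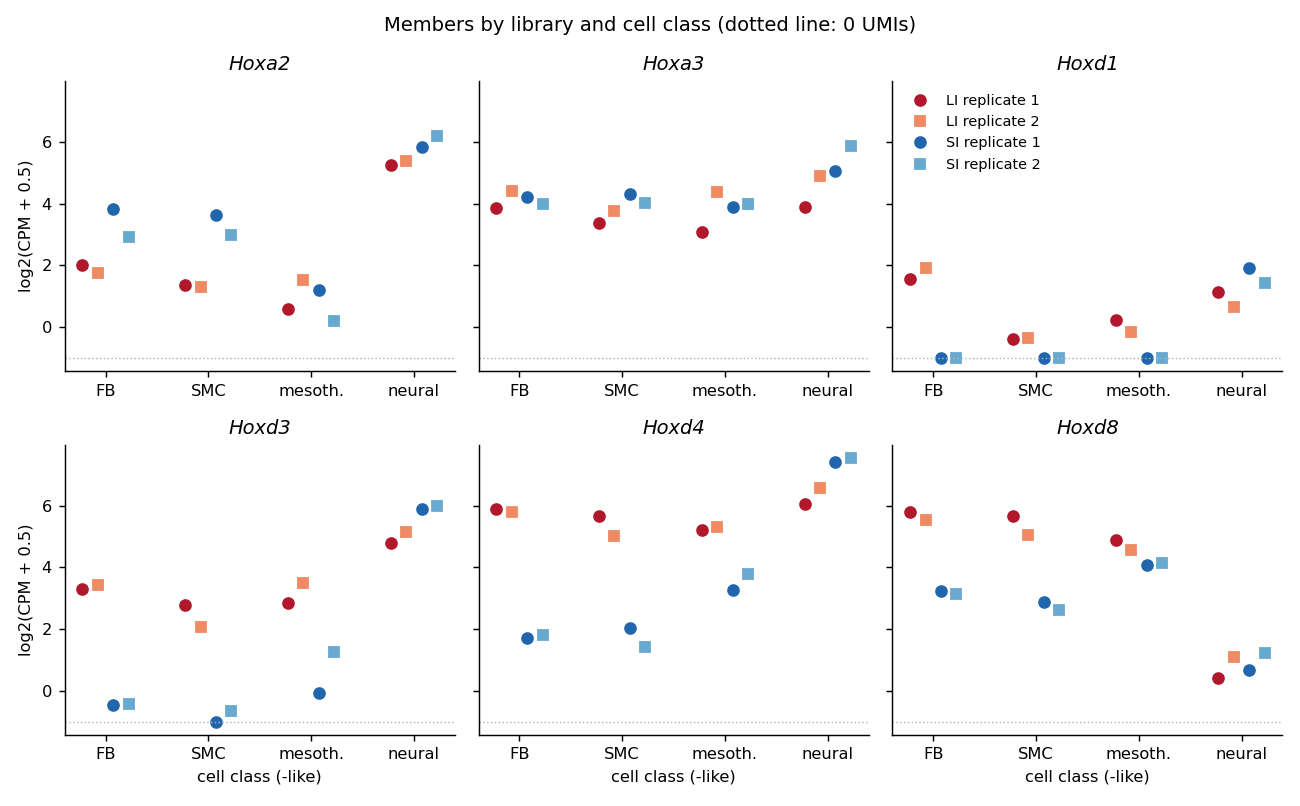
Level of each of the 6 genes in every library, as log2(CPM + 0.5), in FB-like, SMC-like, mesothelial-like and neural-like cells, with 1 symbol per library. In FB-like cells the LI symbols of *Hoxd4* (59.2 and 55.1 CPM) lie far above the SI symbols (2.75 and 2.998 CPM), whereas in neural-like cells the SI symbols (169 and 187 CPM) are the higher ones.

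The low SI level of *Hoxd4* was set beside RNA from other cells. In SI, the neural marker genes stood in FB-like cells at a median of 0.116% and 0.133% of their level in neural-like cells (range 0.0270% to 2.78% and 0.0336% to 8.19%). *Hoxd4* in SI FB-like cells stood at 1.63% and 1.601% of its neural-like level and *Hoxd3* at 0.372% and 0.383%, within those ranges. *Hoxa2*, at 24.1% and 9.78%, lay above them. The part of neural RNA in the remaining SI counts of *Hoxd3* and *Hoxd4* was not tested.

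The whole HoxD cluster moved in 1 direction in FB-like cells. All 9 *Hoxd* genes were called higher in LI: besides the 4 members these were *Hoxd9* (231.8 and 157 CPM in LI, 0.275 and 2.04 CPM in SI), *Hoxd10* (132 and 152 against 0 and 0.480), *Hoxd11* (252 and 221 against 0.0550 and 0.899), *Hoxd12* (87 UMIs in LI and 0 in SI) and *Hoxd13* (159 and 1 UMIs). The log2 fold changes of *Hoxd9*, *Hoxd10* and *Hoxd11*, at -7.26, -9.06 and -8.82, were larger in size than those of *Hoxd8*, *Hoxd4* and *Hoxd3*. Their size rested on SI replicate 2, which held 34 of 39 SI UMIs of *Hoxd9*, 8 of 8 of *Hoxd10* and 15 of 16 of *Hoxd11*. The ratio of LI to SI UMIs, 167 for *Hoxd9* and 508 for *Hoxd11*, came to 91.5 and 259 without SI replicate 1 and to 677 without SI replicate 2 for *Hoxd9*, where 1 UMI of *Hoxd11* was left. The remaining genes of the HoxA cluster divided along its length. *Hoxa9*, *Hoxa10*, *Hoxa11* and *Hoxa13*, the posterior genes, were all called higher in LI, with *Hoxa10* at -8.10 and *Hoxa9* at -5.03. SI replicate 2 held 25 of the 26 SI UMIs of *Hoxa10*, whose ratio of LI to SI UMIs, 319, came to 159 without SI replicate 1, while 1 UMI was left without SI replicate 2. *Hoxa6* was also called higher in LI (-1.41), *Hoxa4* was called higher in SI (2.79), and *Hoxa5* (0.32) and *Hoxa7* (0.03) did not pass the test.

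**Figure D2:**
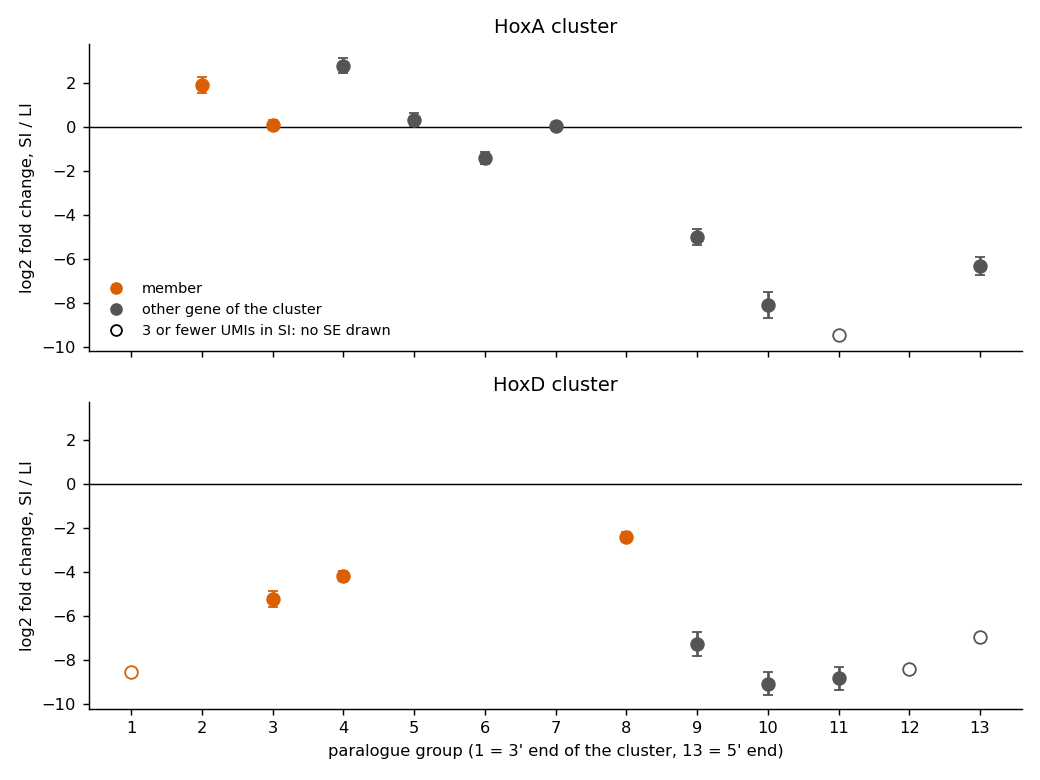
Log2 fold change, SI relative to LI, in FB-like cells for genes of the HoxD and HoxA clusters, by paralogue group from the 3′ end (1) to the 5′ end (13), with bars of 1 SE. Open symbols mark genes with 3 or fewer UMIs in SI, whose fitted value is no estimate of size. All HoxD points lie below 0, from -2.40 for *Hoxd8* downward, while in HoxA the points for *Hoxa2* (1.89) and *Hoxa4* (2.79) lie above 0 and those of groups 9 to 13 below it.

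The HoxB and HoxC paralogues of *Hoxd3*, *Hoxd4* and *Hoxd8* had the opposite direction. Of 7 listed genes of the HoxB and HoxC clusters in groups 1 to 4 and 8, 6 could be tested and all 6 were called higher in SI. These were *Hoxb2*, the paralogue of *Hoxa2* (log2 fold change 2.20), *Hoxb3* (1.43), *Hoxb4* (2.27), *Hoxb8* (3.32), *Hoxc4* (1.80) and *Hoxc8* (1.38). *Hoxb1*, the paralogue of *Hoxd1*, was too low to be tested. Of the 35 *Hox* genes tested, 13 had a call toward SI and 18 toward LI.

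Taken within a library, the ratio of a *Hoxd* member to its paralogue also separated the regions. The log2 ratio of *Hoxd3* to *Hoxa3* was -0.58 and -0.99 in LI and -4.69 and -4.44 in SI, a difference of -3.78. That of *Hoxd4* to *Hoxa4* was 3.11 and 3.11 in LI and -3.98 and -2.85 in SI, a difference of -6.53. For *Hoxd8*, whose HoxA counterpart is missing from the cluster, the ratio to the neighbour *Hoxa7* was -0.07 and -0.06 in LI and -2.46 and -2.38 in SI, a difference of -2.36. The ratio to *Hoxd11* was higher in SI by 3.97 for *Hoxd4* and by 5.58 for *Hoxd8*, with 16 UMIs of *Hoxd11* left in SI, 15 of them in replicate 2. Leaving out 1 library moved these values over 3.36 to 4.59 and 4.86 to 6.30. These sizes move with the added value: with 5 CPM in place of 0.5 CPM the difference was -1.47 for *Hoxd3* to *Hoxa3*, 2.48 for *Hoxd4* to *Hoxd11* and 3.43 for *Hoxd8* to *Hoxd11*, in the same directions. No ratio named so far overlapped between regions. The ratio of *Hoxa2* to *Hoxb2* differed by -0.62, with overlapping regions, and by -1.10 without overlap when 5 CPM was added. With 2 libraries against 2, a two-sided exact permutation test cannot give a p below 0.333, the value of each pair without overlap. The ratios of *Hoxd1* and that of *Hoxd3* to *Hoxd11* were left out, since the 0.5 CPM added to the low counts in SI largely sets them.

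**Figure D3:**
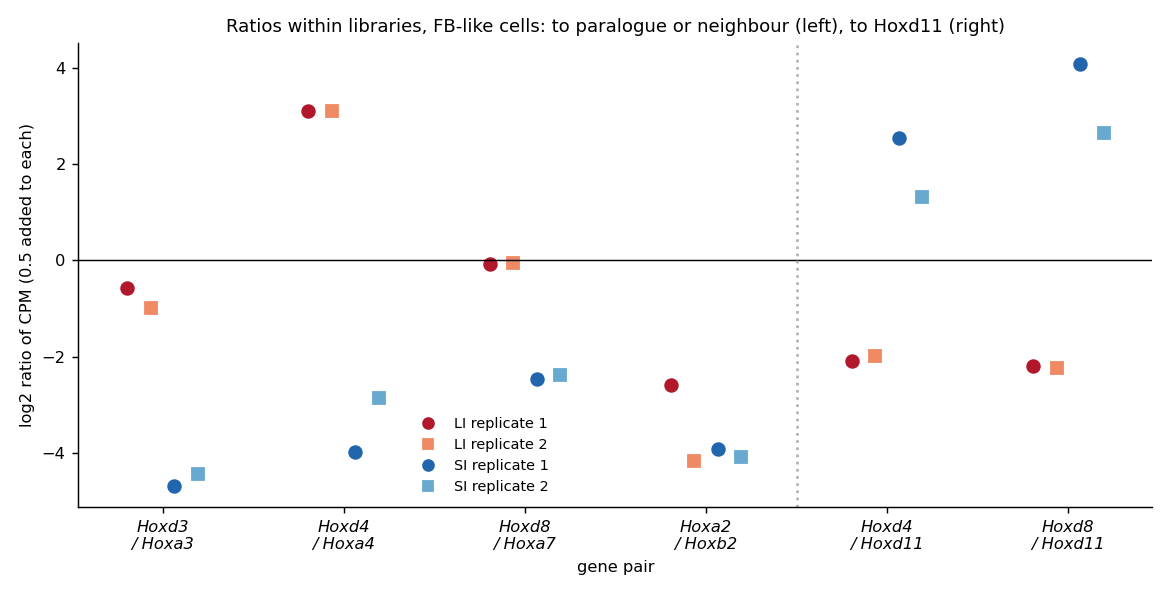
Log2 ratio of CPM (0.5 CPM added to each gene) between 2 genes within each library in FB-like cells, with 1 symbol per library: left, member to paralogue or neighbour, right, *Hoxd* member to *Hoxd11*. *Hoxd3* to *Hoxa3* falls from -0.58 and -0.99 in LI to -4.69 and -4.44 in SI, while the ratios of *Hoxd4* and *Hoxd8* to *Hoxd11* are higher in SI.

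Members also separated the regions in SMC-like cells. *Hoxd4* was at 50.03 and 31.9 CPM in LI and 3.62 and 2.20 CPM in SI (log2 fold change -3.69, SE 0.34, adjusted p = 0.00228). *Hoxd8* was at 50.3 and 32.9 CPM in LI and 6.86 and 5.64 CPM in SI (-2.59), and *Hoxd3* at 6.45 and 3.69 CPM in LI and 0 and 0.130 CPM in SI. *Hoxd3* was called as well, but with 51 UMIs in LI and 2 in SI its size is uncertain. The ratio of its summed UMIs, 60.5, came to 36.03 without SI replicate 1 and to at least 16.3 without SI replicate 2, which held both SI UMIs. *Hoxa2* was higher in SI, at 11.8 and 7.38 CPM against 2.06 and 1.99 CPM (2.37, adjusted p = 0.0255). *Hoxa3* was at 9.80 and 13.2 CPM in LI and 19.4 and 15.7 CPM in SI without passing the test (0.73, adjusted p = 0.291), although the regions did not overlap. It passed with a replicate block (adjusted p = 0.0410), a fit described with the processing alternatives. *Hoxd1*, with 3 UMIs in LI and 0 in SI, was not tested. Thus 1 of 5 tested members was called higher in SI and 3 in LI, where 0.362% and 1.01% of 12149 genes were called.

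Between these classes the region difference itself did not pass a test of the difference. The interaction of region and class called 0 of 6 members by edgeR, and also 0 by DESeq2, where 0.776% and 1.31% of 13399 genes were called upward and downward and 1520 had an unadjusted p under 0.05. Only *Hoxa3* among the members had one, at 0.00194 (log2 interaction 0.66, SE 0.17, adjusted p = 0.0746). With no filter on low counts edgeR did call *Hoxa3* (adjusted p = 0.0193). The number of genes called in that fit stands with the processing alternatives. Averaged over the libraries, *Hoxd3* (log2 fold change -1.03) and *Hoxd8* (-0.33) were called lower in SMC-like than in FB-like cells, where 10.5% of 12797 genes were. DESeq2 called neither, *Hoxd3* lost the call without SI replicate 1 (adjusted p = 0.0525, where *Hoxd4* gained it at 0.0463) and was too low to be tested without LI replicate 1 or 2, and *Hoxd8* lost it without LI replicate 2 (0.146), SI replicate 1 (0.0815) or SI replicate 2 (0.0587).

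In 2 large clusters that stayed unnamed *Hoxd3*, *Hoxd4* and *Hoxd8* were also called higher in LI. *Hoxd1* had 1 UMI in LI and 1 in SI in cluster 3, and 8 and 1 in cluster 4, and was not tested. In cluster 3 (2311 cells, led by *Bmp3* and *Col14a1*), *Hoxd4* was at 44.2 and 30.8 CPM in LI and 2.34 and 0.642 CPM in SI (log2 fold change -4.57). The ratio of its summed UMIs, 25.7, moved to 55.2 without SI replicate 1 and to 15.1 without SI replicate 2. It was called, as were *Hoxd8* (-1.66) and *Hoxd3*, the latter with 34 UMIs in LI and 2 in SI, too few for a size (2.19% of 11410 genes were called higher in LI). *Hoxa2* (4.06) and *Hoxa3* (1.46) were both called higher in SI there (1.03% of genes), with *Hoxa3* at 6.01 and 8.46 CPM in LI and 19.6 and 17.6 CPM in SI. In cluster 4 (1823 cells, led by *Anxa2*, *Wnt4* and *Tac2*), *Hoxd4* (-3.70), *Hoxd8* (-1.98) and *Hoxd3*, with 29 UMIs in LI and 2 in SI, were called higher in LI (0.583% of 10971 genes), and *Hoxa2* (1.87) and *Hoxa3* (1.05) did not pass.

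In mesothelial-like cells, the outer lining of the gut, *Hoxd4* was called higher in LI. *Hoxd4* was at 36.8 and 39.0 CPM in LI and at 9.09 and 13.4 CPM in SI, with a log2 fold change of -1.72 (SE 0.30, adjusted p = 0.0199). Without SI replicate 1 it was -1.44 and no longer passed (adjusted p = 0.108), nor did it with doublets removed at a doubled rate (-1.56, adjusted p = 0.0673). *Hoxd8* was at 29.4 and 23.1 CPM in LI and 16.4 and 17.2 CPM in SI and was not called (-0.60, adjusted p = 0.511). *Hoxd3* was at 6.69 and 10.8 CPM in LI and 0.454 and 1.91 CPM in SI (-2.89, adjusted p = 0.0770), and a replicate block turned this into a call (-2.87, adjusted p = 0.000588). It rested on 4 UMIs in SI and ranged from -4.03 to -2.09 as libraries were left out. *Hoxa3* overlapped between regions (8.03 and 20.3 CPM in LI, 14.5 and 15.3 CPM in SI). *Hoxa2* was too low to be tested, at 0.637 to 2.39 CPM, and *Hoxd1* had 3 UMIs in LI and 0 in SI. The count was 1 of 4 tested members called, where 0.611% of 10642 genes were called higher in LI.

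The region difference of *Hoxd4* and *Hoxd8* was smaller in mesothelial-like than in FB-like cells by a direct test. The log2 interaction was 2.41 (SE 0.32, adjusted p = 1.13e-05) for *Hoxd4* and 1.78 (SE 0.26, adjusted p = 5.11e-05) for *Hoxd8*, where 2.16% of 13038 genes were called in this direction. *Hoxd3*, at 2.26 and between 1.08 and 2.98 as libraries were left out, did not pass (adjusted p = 0.235). Over the libraries *Hoxa2* was lower in mesothelial-like than in FB-like cells (log2 fold change -1.98, adjusted p = 0.00914, with 17.9% of genes called lower), and lost the call without SI replicate 1 (-1.48, adjusted p = 0.0934). Fewer UMIs of a gene in a class sum do not tell fewer cells with the transcript from less transcript per cell.

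Neural-like cells, which hold precursors and neurons of the gut's own nervous system, carried *Hoxd3* and *Hoxd4* in both regions. *Hoxd4* was at 66.7 and 94.6 CPM in LI and 169 and 187 CPM in SI, and *Hoxd3* at 27.0 and 35.2 CPM in LI and 59.3 and 62.6 CPM in SI. *Hoxa2* was at 38.0 and 41.1 CPM in LI and 57.3 and 72.3 CPM in SI, and *Hoxa3* at 14.4 and 29.1 CPM in LI and 32.8 and 58.2 CPM in SI. *Hoxd1* stayed low, at 1.69 and 1.08 CPM in LI and 3.26 and 2.20 CPM in SI. For all 5 genes both SI libraries lay above both LI libraries, but the share of all genes that did so was not counted.

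None of these 5 passed the test of region in neural-like cells by edgeR. The log2 fold changes were 1.07 for *Hoxd4* (adjusted p = 0.0803), 0.89 for *Hoxd3* (0.141), 0.64 for *Hoxa2* (0.330), 0.94 for *Hoxa3* (0.422) and 1.01 for *Hoxd1* (0.712). Few genes were called at all, 0.106% of 11283 toward SI and 0.204% toward LI, while 936 had an unadjusted p under 0.05, *Hoxa2*, *Hoxa3*, *Hoxd3* and *Hoxd4* among them. DESeq2 called *Hoxd4* (adjusted p = 0.00480), and a replicate block called 3 members and 408 genes in all, against 35 genes without it. *Hoxd8* was low, at 0.845 and 1.62 CPM in LI and 1.09 and 1.84 CPM in SI, 1.54% and 3.49% of the level in LI and 12.2% and 22.3% of the level in SI FB-like cells. *Hoxd11* was likewise low, at 7.18 and 0.897 CPM in LI and 0 and 0.551 CPM in SI. Summed over the libraries of a region, no other gene from *Hoxd9* to *Hoxd13* exceeded 14 UMIs in neural-like cells, so *Hoxd3* and *Hoxd4* were present there with few counts of *Hoxd8* and the posterior genes.

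The ratios to the paralogues changed accordingly. The log2 ratio of *Hoxd3* to *Hoxa3* was 0.89 and 0.27 in LI and 0.84 and 0.10 in SI in neural-like cells, a difference of -0.11 with overlap, against -3.78 in FB-like cells. That of *Hoxd4* to *Hoxa4* differed by -0.81 and did not overlap. Against FB-like cells, *Hoxa2* (log2 fold change 3.14, SE 0.31), *Hoxa3* (0.92) and *Hoxd3* (3.75, SE 0.99) were called higher in neural-like cells, where 23.9% of 12454 genes were, and *Hoxd8* was called lower (-3.95, SE 0.44), as 25.1% were. *Hoxd4* (2.94, SE 1.11, adjusted p = 0.0624) and *Hoxd1* (1.35) did not pass. *Hoxd4* ranged from 1.97 when either SI library was left out (not passing) to 3.97 and 4.09 without LI replicate 1 and LI replicate 2 (adjusted p = 0.0231 and 0.0440). *Hoxd3* ranged from 2.99 to 4.85 and kept its call, and *Hoxa3* lost its call without SI replicate 1 (adjusted p = 0.0535).

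The difference between the region effects of these classes was called for 5 members. In neural-like against FB-like cells the log2 interaction was 6.10 (SE 0.32) for *Hoxd3*, 5.21 (SE 0.19) for *Hoxd4* and 2.43 (SE 0.58) for *Hoxd8*, with adjusted p = 1.79e-07, 6.86e-09 and 0.0135, where 5.39% of 13246 genes were called upward. *Hoxd1* was also called (adjusted p = 0.000350), with a fitted size that depends on its 0 counts in SI FB-like cells. *Hoxa2* was called downward (-1.20, adjusted p = 0.0396), as 7.79% of genes were, and *Hoxa3* was not called (0.88, adjusted p = 0.0602). The call of *Hoxd8* was lost without SI replicate 2 (1.93, adjusted p = 0.210) and that of *Hoxa2* without SI replicate 1 (-0.54, adjusted p = 0.303).

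Neural-like cells consisted of 2 clusters, cluster 7 (956 cells, led by the precursor genes *Sox10* and *Foxd3*) and cluster 8 (290 cells, led by the neuronal genes *Cartpt*, *Stmn2* and *Tubb3*). *Hoxd4* was at 52.6 and 70.0 CPM in LI and 129 and 135 CPM in SI in cluster 7, and at 142 and 202 CPM in LI and 312 and 345 CPM in SI in cluster 8. *Hoxd3* followed the same order, from 21.6 to 52.4 CPM in cluster 7 and from 56.4 to 108 CPM in cluster 8. Both were called higher in cluster 8 with library as a block (log2 fold changes 1.25 and 0.99), as 29.6% of 9529 genes were. *Hoxa2* (0.27) and *Hoxa3* (0.34) did not pass that test. No *Hox* gene entered the clustering.

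All kept cells, whatever their class, were also summed. There *Hoxd4* was still called higher in LI (log2 fold change -1.23), and *Hoxd3* was not (-0.61, adjusted p = 0.211). The number of neural-like cells was 220 and 264 in LI and 326 and 436 in SI.

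To ask within 1 region whether the members went with the posterior genes, FB-like cells of LI were divided by whether they held a UMI of *Hoxd9* to *Hoxd13*. Every cell was first thinned to 3000 UMIs, which left out 672 cells of LI replicate 1 and 92 of LI replicate 2, and 1594 of 2407 cells (66.2%) and 1317 of 2077 cells (63.4%) were positive. *Hoxd4* was at 29.9 and 29.8 CPM in the negative and 79.5 and 83.5 CPM in the positive cells. *Hoxd8* was at 25.4 and 20.6 CPM in the negative and 74.7 and 72.4 CPM in the positive cells. *Hoxd3* rose from 3.28 and 3.51 CPM to 12.97 and 17.5 CPM, and *Hoxd1* from 0.410 and 1.32 CPM, which is 1 and 3 UMIs, to 3.76 and 6.58 CPM. The levels of the positive and negative cells did not overlap for any of these 4 genes.

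The log2 fold changes were 1.37 for *Hoxd4* (SE 0.12), 2.07 for *Hoxd3* (SE 0.34) and 2.47 for *Hoxd1* (SE 0.58), and that of *Hoxd8* lay between those of *Hoxd4* and *Hoxd3* (SE 0.14). All 4 were called, where 4.08% of 11067 genes were called higher in positive cells. *Hoxa3*, from 9.43 and 16.7 CPM to 16.9 and 24.6 CPM, did not pass (0.60, adjusted p = 0.0559), nor did *Hoxa2* (-0.20). DESeq2 called 2 of these genes, *Hoxd4* and *Hoxd8*. In cluster 0 alone the log2 fold changes were 1.05 for *Hoxd4*, 1.80 for *Hoxd3* and 1.44 for *Hoxd8*, all called. At 2000 UMIs per cell *Hoxd3* was at 5.75 and 5.71 CPM in negative and 13.6 and 14.8 CPM in positive cells. *Hoxd1* was there at 2.47 and 1.04 CPM in negative and 4.82 and 4.22 CPM in positive cells. All these sums come from 2 libraries, so no library could be left out, and the LI dissection included the cecum, so position along the gut within LI cannot be told apart from other differences between cells.

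Dividing the same cells by *Hoxa9* to *Hoxa13* gave smaller differences for the *Hoxd* members. *Hoxd4* (log2 fold change 0.86), *Hoxd3* (0.88), *Hoxd8* (0.62) and *Hoxa3* (0.80) were called higher in positive cells, where 1.61% of 11113 genes were, and *Hoxd1* did not pass (1.40, adjusted p = 0.0931). DESeq2 called 0 members in this division, where 1563 genes had an unadjusted p under 0.05 by edgeR. With both divisions as terms of 1 fit, the *Hoxd9* to *Hoxd13* term was 1.94 for *Hoxd3*, 1.23 for *Hoxd4* and 1.52 for *Hoxd8*, all called, and the *Hoxa9* to *Hoxa13* term was called for *Hoxd4* alone (0.60). In that fit *Hoxa3* passed for neither term. Dividing LI cells by the anterior genes *Hoxa4* or *Hoxa5*, *Hoxa3* (0.79) and *Hoxd4* (0.67) were called, where 0.703% of 11092 genes were, and *Hoxd3*, with a log2 fold change close to 0, and *Hoxd8* (0.21) were not. DESeq2 called neither of them there. Among SI cells the same division called *Hoxa2* alone, from 9.56 and 4.68 CPM in negative to 24.7 and 14.6 CPM in positive cells (1.44, SE 0.29, with 0.276% of 10520 genes called). *Hoxa3* (-0.09), *Hoxd4* (0.0079) and *Hoxd8* (0.02) did not pass there, and *Hoxd1* and *Hoxd3* were too low to be tested. This SI call was lost with DESeq2 and at 2000 UMIs per cell (1.11, adjusted p = 0.538).

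**Figure D4:**
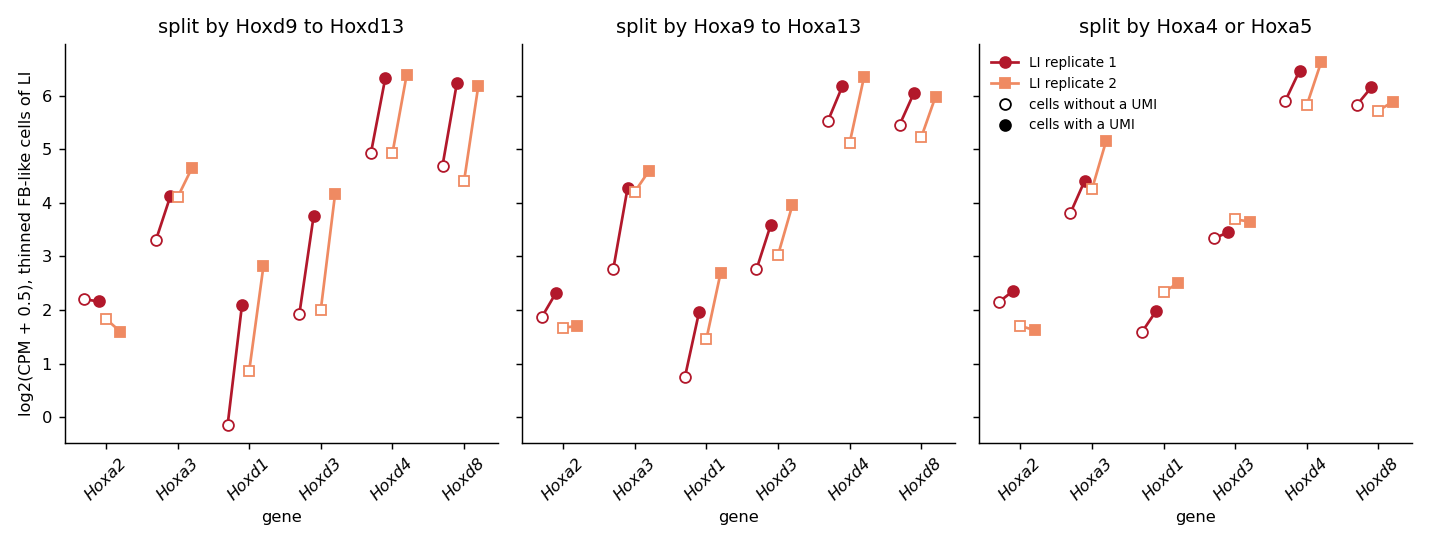
Level of each gene, as log2(CPM + 0.5), in FB-like cells of the 2 LI libraries thinned to 3000 UMIs, without (open) and with (filled) a UMI of *Hoxd9* to *Hoxd13*, of *Hoxa9* to *Hoxa13* and of *Hoxa4* or *Hoxa5*. In the first panel the lines of all 4 *Hoxd* genes rise in both libraries, from 29.9 and 29.8 to 79.5 and 83.5 CPM for *Hoxd4*.

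The share of cells with a UMI, at 3000 UMIs per cell, followed the levels. In FB-like cells *Hoxd4* was found in 16.5% and 16.6% of LI cells (95% Wilson intervals 15.02% to 17.99% and 15.1% to 18.3%) and in 1.06% and 0.912% of SI cells (0.685% to 1.63% and 0.570% to 1.45%). *Hoxd8* was found in 15.6% and 14.4% of LI and in 2.53% and 2.90% of SI cells, and *Hoxd3* in 2.83% and 3.66% of LI cells. In SI, *Hoxd3* was found in 0 of 1894 cells of replicate 1, which allows a share of up to 0.158% at this depth, and in 0.161% of cells of replicate 2. Without thinning it was found in 0.209% and 0.211% of them. *Hoxa2* was found in 1.20% and 0.818% of LI and 3.85% and 1.88% of SI cells, and *Hoxa3* in 4.28% to 6.21% over the 4 libraries. Intervals cover counting error only.

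In neural-like cells *Hoxd4* was found in 15.1% and 28.7% of LI and 41.4% and 37.1% of SI cells, and *Hoxd3* in 9.91% and 9.96% of LI and 18.5% and 16.8% of SI cells. *Hoxd8* was found in 0% to 0.472% of neural-like cells, a class with almost none of its transcript, against 2.53% and 2.90% of SI FB-like cells. No class with so little *Hoxd3* or *Hoxd4* was seen in both regions, so no such background share can be given for them. The median depth was 13202.5 UMIs in neural-like and 7000 in FB-like cells before thinning. Unthinned, *Hoxd4* was found in 21.3% and 34.2% of LI and 2.61% and 2.42% of SI FB-like cells and in 40.9%, 73.5%, 77.6% and 73.2% of neural-like cells. Each share without overlap between regions had an exact permutation p of 0.333, the smallest that 4 libraries allow.

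**Figure D5:**
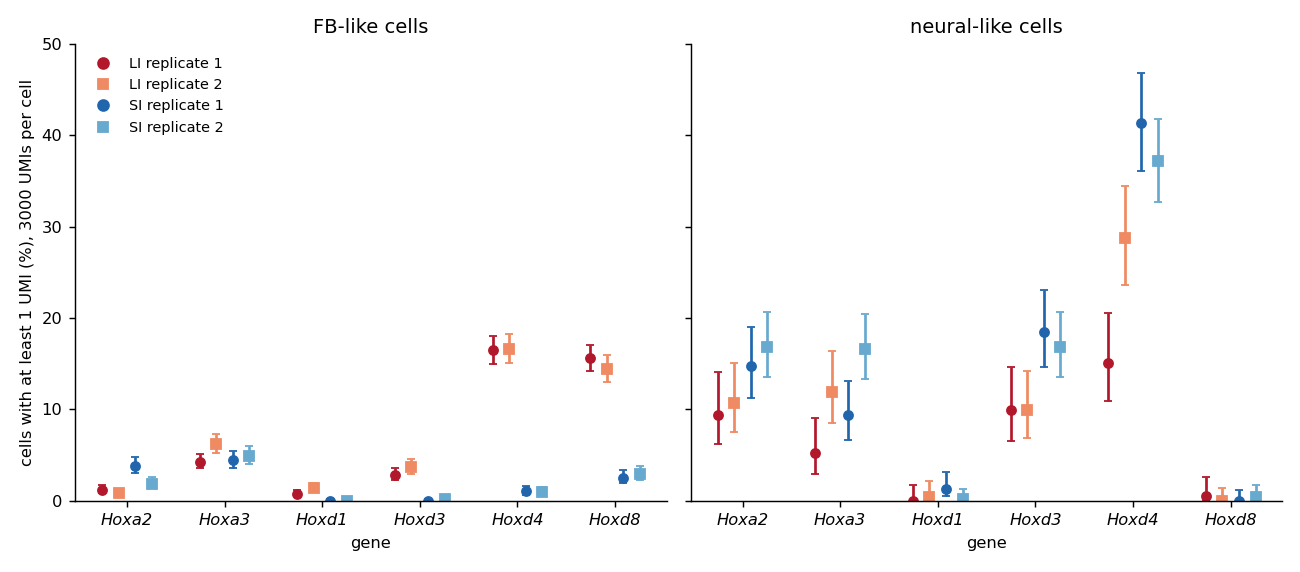
Percentage of FB-like (left) and neural-like (right) cells with at least 1 UMI of each gene after thinning to 3000 UMIs per cell, with 95% Wilson intervals and 1 symbol per library. *Hoxd4* is at 16.5% and 16.6% in LI and about 1% in SI FB-like cells, and at 41.4% and 37.1% in SI neural-like cells.

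Genes beside and within the clusters were read from the same FB-like fit. Of the genes that flank HoxD, *Mtx2* (log2 fold change 0.13), next to *Hoxd1*, *Hnrnpa3* (0.10) and *Atf2* (0.12) were tested and none passed. Of those that flank HoxA, *Skap2*, beyond the 3′ end, was called higher in SI (1.61), and *Snx10* (-0.60), *Hibadh* (0.49) and *Tax1bp1* (-0.03) did not pass. Of 8 listed noncoding genes of the clusters, 5 were tested and all 5 were called. *Haglr*, antisense between *Hoxd1* and *Hoxd3*, was called higher in LI (-3.96, with 99 UMIs in LI and 6 in SI), as was *Hoxd3os1* (-2.63). *Hotairm1*, beside the 3′ end of *Hoxa2*, was called higher in SI (3.07), as were *Hoxaas3* (2.72) and *5730596B20Rik* (2.92). *Hoxd3os1* shares 347 exon bases with *Hoxd3* on the other strand and *Hoxaas3* 297 with *Hoxa3*. The strand setting of the count is not given in the sources used here, so reads from such partners may be mixed.

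Hox proteins bind DNA with cofactors of the TALE family, and the 3′ *Hox* genes respond to retinoic acid. Of 9 TALE genes (Pbx, Meis and Pknox) 0 were called between regions in FB-like cells by edgeR, and the most abundant, *Meis2*, was at 930 and 1144 CPM in LI and 670 and 824 CPM in SI (log2 fold change -0.31). Of 18 genes of retinoic acid synthesis, breakdown, binding and reception, 16 were tested, with 2 calls toward SI and 2 toward LI. *Aldh1a2*, which makes retinoic acid, was at 27.1 and 54.3 CPM in LI and 323 and 263 CPM in SI (3.01), and *Rxrg*, a retinoid X receptor, was lower in SI (-4.94, with 248 UMIs in LI and 7 in SI). *Dhrs3* (1.27) and *Crabp2* (-2.38) were the other two.

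Over the 12 library and class sums of FB-like, SMC-like and mesothelial-like cells, Pearson's correlation of log2(CPM + 5) was 0.953 between *Hoxd3* and *Hoxd4*, 0.970 between *Hoxd4* and *Hoxd8*, and 0.915, 0.943 and 0.908 between *Hoxd11* and *Hoxd3*, *Hoxd4* and *Hoxd8*. Against the HoxA counterparts it was -0.14 for *Hoxd3* with *Hoxa3*, -0.90 for *Hoxd4* with *Hoxa4* and -0.30 for *Hoxd8* with *Hoxa7*. Over the same sums the posterior gene *Hoxa10* reached 0.941 with *Hoxd3*, 0.952 with *Hoxd4* and 0.903 with *Hoxd8*. High values were thus not particular to the posterior genes of HoxD. *Hoxd1* was at 0.619 with *Hoxd11* and 0.664 with *Hoxa10*. With the 4 neural-like sums added, *Hoxd4* with *Hoxd11* came to 0.304, *Hoxd3* with *Hoxd11* to 0.015 and *Hoxd8* with *Hoxd11* to 0.836. These are descriptions, since the sums share 4 libraries. Over those 16 sums and 8681 candidate genes, the profiles most like each member were *Tbx3* (0.978), *Mxra7* (0.971) and *Ebp* (0.956) for *Hoxa2*, *Hoxa5* (0.918), *Ttc32* and *Tshz1* for *Hoxa3*, *Sema4c* (0.846), *Lpar6* and *Lrrn3* for *Hoxd1*, *Cdh2* (0.977), *Cadm4* and *Sort1* for *Hoxd3*, *Ap2b1* (0.944), *Hoxd3* (0.940) and *Kctd12* for *Hoxd4*, and *Kdm5b* (0.972), *2700069I18Rik* and *Malat1* for *Hoxd8*. *Hoxd4* was thus the gene with another member among its nearest profiles.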

How the data were processed

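Per the labels and the study's methods, sorted cells of pooled embryos were run on 10x Genomics 3′ or 5′ kits (which library used which is not given in the sources used here). The authors deposited raw UMI counts per gene and cell, made with Cell Ranger 3.1.0 on mm10, with totals of 31630548 to 62886525 UMIs and 5151 to 6881 barcodes per library. Strand settings are not given in the sources used here. The study integrated libraries with Seurat 3.

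Here, cells needed 1000 genes or more and under 10% mitochondrial UMIs. Scrublet's automatic threshold marked 1 to 6 cells per library, so the highest-scoring cells were removed at 0.8% per 1000 cells (183 to 348). Libraries were integrated with Seurat 5.3.0 (2000 variable genes less *Hox* and listed genes, 30 components, resolution 0.3). Clusters were named from marker lists by a rule set after the clusters were seen, so class names may differ from the study's. The members and gene lists were chosen with earlier results of these data known.

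UMI counts were summed per library and class, kept with filterByExpr and tested with edgeR 4.0.16 (TMM, quasi-likelihood, two-sided, Benjamini-Hochberg adjustment over all genes tested, call at 0.05). The SE was taken as the size of the log2 fold change divided by the root of its F statistic. A call, adjusted p and log2 fold change in the report is from edgeR unless DESeq2 1.42.0 is named. Levels are CPM of the summed UMIs, with 0.5 CPM added for log ratios. Ratios of summed UMIs carry exact 95% counting intervals, and shares carry 95% Wilson intervals. Exact permutation tests over libraries were two-sided. On simulated counts, 99% to 100% of the genes changed by a log2 of 2 were recovered. The simulated spread between libraries was fixed and not fitted to these data, and only genes with ample counts were changed. This recovery therefore does not apply to members with few UMIs, such as *Hoxd1*. Positions are from GENCODE vM21 on mm10. Alternatives were another size factor, no filter, DESeq2, a replicate block, thinning, stricter cell filters and leaving out each library. Named genes were the members, their comparators, the listed flanking and noncoding genes, the 2 called genes of largest change and the most abundant gene of the TALE and retinoic acid lists, and the 3 nearest profiles per member. A few results under that rule are not reported here. *Hoxa6*, *Dhrs3* and *Crabp2* were named after their values were seen. Tools were Python 3.11.15, NumPy 2.4.6, SciPy 1.17.1, pandas 2.3.3, scanpy 1.11.5, matplotlib 3.10.9 and R 4.3.3.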

Additional observations from a re-analysis of the deposited data

Results flagged for a closer look

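The test of the difference between region effects in 2 classes flagged 7 values. Compared with FB-like cells, the log2 difference between SI and LI was shifted in mesothelial-like cells by 2.41 for *Hoxd4* and by 1.78 for *Hoxd8*. In neural-like cells it was shifted by -1.20 for *Hoxa2*, 6.10 for *Hoxd3*, 5.21 for *Hoxd4* and 2.43 for *Hoxd8*. The fitted shift of 8.99 for *Hoxd1* depends on its 0 UMIs in SI FB-like cells and gives no size. Adjusted p-values ran from 6.86e-09 for *Hoxd4* to 0.0396 for *Hoxa2*, both in neural-like cells (edgeR). No group held the 4 libraries needed to test for a library far from the others.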

How the results depend on the processing

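Of the single-gene values recomputed under the alternatives, 463 kept their direction and side of the threshold, 37 lost and 33 gained a call and 20 changed sign. In FB-like cells 5 members were called in every leave-one-out fit and in the other alternatives, except over all kept cells (4, without *Hoxd3*) and in cluster 2 alone (4, with *Hoxd1* not tested). In SMC-like cells the count stayed at 4 as libraries were left out. With all libraries, 664 of 13318 genes were called in FB-like and 167 of 12149 in SMC-like cells. For the leave-one-out fits of these 2 classes the number of genes called is not given here. The causes of the changes below were not tested. Depth limits *Hoxd1* and the SI values of *Hoxd3*, and 2 libraries per region limit each p.

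Same-numbered libraries deviated together (correlations 0.428, 0.458, 0.278 and 0.416 in FB-, SMC-, mesothelial- and neural-like cells), but the labels do not say that a number is shared. With the replicate block the calls came to 5 members (1572 genes) in FB-like, 5 (1212 genes) in SMC-like, 2 (739 genes, adding *Hoxd3* at -2.87) in mesothelial-like and 3 (408 genes) in neural-like cells.

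The number of all genes called stands in parentheses after each number of members. Leaving out 1 library moved the members called between 0 (155, without SI replicate 1) and 1 (80 to 769) in mesothelial-like cells, 0 and 3 in neural-like cells (2 (246) without LI replicate 1, 3 (1473) without LI replicate 2, 1 (138) without SI replicate 1 and 0 (0) without SI replicate 2), 0 (1535, without LI replicate 2, where *Hoxd3* could not be tested) and 1 (1504 to 2479) for SMC-like against FB-like, 0 (3180, without SI replicate 1) and 1 (3115 to 4388) for mesothelial-like against FB-like, 3 (4915) and 5 (4570 and 5804) for neural-like against FB-like, and 4 (965) and 6 (1583 and 2242) for the neural-like interaction. With no filter 2 members (415) were called in mesothelial-like, 3 (362) in neural-like, 4 (2940) for SMC-like and 2 (5144) for mesothelial-like against FB-like, and 1 (620) for the SMC-like interaction. DESeq2 called 1 (97) in neural-like, 0 (1601) for SMC-like against FB-like, and 2 (160), 0 (26), 0 (8) and 0 (2) in the divisions by *Hoxd9* to *Hoxd13*, *Hoxa9* to *Hoxa13*, and *Hoxa4* or *Hoxa5* in LI and in SI. Thinned sums gave 1 (75) in neural-like and doubled doublet removal 0 (60) in mesothelial-like cells. At 2000 UMIs the last 3 divisions called 2 (270), 1 (17) and 0 (14), in cluster 0 alone the *Hoxa9* to *Hoxa13* and LI *Hoxa4* or *Hoxa5* divisions called 2 (285) and 1 (112), with both divisions in 1 fit the former called 1 (109), with 2 UMIs required the latter called 0 (30), and over all kept cells the SI division called 4 (737).

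These values changed sign. *Hoxa3* in FB-like cells ranged from -0.13 (LI replicate 1 left out) to 0.38 (LI replicate 2), with -0.03 when SI replicate 1 was dropped, and was -0.017 in cluster 0; in mesothelial-like cells it ranged from -0.36 (LI replicate 1) to 0.92 (LI replicate 2). Its mesothelial-like interaction ranged from -0.23 (LI replicate 1) to 0.56 (LI replicate 2), with -0.08 for SI replicate 2, and that of *Hoxd3* for SMC-like cells from -3.57 (SI replicate 2) to 0.22 (SI replicate 1). Against FB-like cells, mesothelial-like *Hoxd3* ranged from -0.10 to 0.51, *Hoxd4* from -0.27 (SI replicate 2; -0.19 for SI replicate 1) to 0.52, and *Hoxd8* from -0.51 to 0.15 (LI replicate 2; 0.10 for LI replicate 1). Over all kept cells *Hoxa2* was -0.75 in the *Hoxa9* to *Hoxa13* division. In the *Hoxa4* or *Hoxa5* division of LI, *Hoxd3* was 0.014 by DESeq2, 0.17 at 2000 UMIs and 0.48 over all kept cells. In that of SI, *Hoxa3* was 0.74 over all kept cells, and *Hoxd8* was -0.81 at 2000 UMIs, -1.21 with 2 UMIs required and -0.41 over all kept cells. The log2 ratio of *Hoxa2* to *Hoxb2* differed by 0.19 in SMC-like cells and ranged from -1.40 to 0.17 as libraries were left out. The difference in the share of cells (percentage points) for *Hoxa3* without thinning was 2.25 (FB-like) and -0.173 (mesothelial-like), and that of *Hoxd1* in neural-like cells was -0.189 at 2000 UMIs. With 1 library left out it ranged from -1.55 to 0.378 for *Hoxa3* in FB-like, -2.28 to 2.70 for *Hoxa3* and -5.67 to 1.20 for *Hoxd8* in mesothelial-like, and -0.238 to 0.234 for *Hoxd8* in neural-like cells.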

Other observations

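Clusters 5, 9 and 10 were left without a name and were not fitted. In cluster 5 (1390 cells), *Hoxd4* was at 48.9 and 41.6 CPM in LI and 4.37 and 2.27 CPM in SI, and *Hoxd8* at 70.9 and 55.5 CPM in LI and 13.1 and 10.1 CPM in SI. *Hoxa2* was at 2.13 and 3.89 CPM in LI and 8.12 and 6.82 CPM in SI there. Cluster 9 (157 cells) came almost wholly from LI replicate 2, with *Hoxd4* at 49.5 CPM, *Hoxd8* at 37.7 CPM and *Hoxa3* at 17.8 CPM. Cluster 10 (156 cells) was led by *Pf4*, *Afp*, *Mt1* and *Rbp4*. The urogenital marker *Foxd1*, the erythroid marker *Hbb-bt* and *Alb* were also among its leading genes. Whether its cells belong to the gut stroma was not tested. It lay mostly in SI replicate 2, where 9 UMIs of *Hoxd3*, 24 of *Hoxd4* and 32 of *Hoxd8* gave 6.996, 18.7 and 24.9 CPM. These lie above the levels of SI FB-like cells. The 32 cells of SI replicate 1 in it held 0 UMIs of all 3 genes, and no test was made.

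In neural-like cells, *Hoxa5* was at 36.7 and 80.0 CPM in LI and 195 and 334 CPM in SI (log2 fold change 2.08), and *Hoxa4* at 15.2 and 30.5 CPM in LI and 72.3 and 102 CPM in SI (1.81). Both were called higher in SI by edgeR, as *Hoxc4* (2.70) and *Hoxb8* (2.29) were.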
